A study of Mus musculus with 6 samples.

Results

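The genes described here are 33 genes of T cell receptor signalling, the receptor-bound CD3 chains, kinases, adaptors, effectors and dampers that carry a signal from the receptor into the T cell. They were chosen by name rather than by their values, though with earlier results of these data known. All 33 were among the 20882 gene columns of the count tables. They are described across T cell subsets, natural killer (NK) cells and the other leukocytes of the lung. The cells came from mice treated with a PD-1 agonist or with an isotype, in a study whose title places it in neutrophilic asthma. PD-1 is an inhibitory receptor of activated T cells.

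Live CD45+ cells were sorted from lungs and profiled by 10x Genomics Chromium single-cell RNA sequencing. The PD-1 agonist group was labelled as 3 mice of a humanized PD-1 mouse model, 6 to 8 weeks old, given the PD-1 agonist. The isotype group was labelled as 3 mice of the same model and age given the isotype. Humanized PD-1 was thus shared by both groups, and no group with mouse PD-1 or without treatment was analysed here. Cells of the 3 mice of a treatment were pooled with hashing antibodies, and hashtag data were not used here. Any pair of tables within a treatment had 2373 to 2736 barcodes in common, against 3 to 13 between tables of different treatments. Each treatment was therefore counted as 1 pool, with every barcode kept once from its record of highest total count. With 1 pool per treatment there is no test between treatments, and treatment cannot be told apart from the library. All intervals below are exact 95% intervals for counting error only. A value is called outside counting error where its interval excludes no change.

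After filtering and removal of doublets, 11259 PD-1 agonist and 10303 isotype cells remained, with median totals of 2224 counts per PD-1 agonist cell and 2539 counts per isotype cell. The T cell clusters held 2190 PD-1 agonist cells and 2298 isotype cells, with 6859566 counts in the PD-1 agonist cells and 8288042 counts in the isotype cells by the authors' totals. Clusters were made without the 33 genes and named from other markers, so each name stands for cells that resemble that type. The T cell marker list, 11 genes that include the receptor constant chains, summed to 5044 CPM (summed counts scaled to a common library size) in PD-1 agonist T cells and 4864 CPM in isotype T cells. The same list summed to 1257 CPM in PD-1 agonist NK cells and 1165 CPM in isotype NK cells, and to 163 CPM in PD-1 agonist neutrophils and 124 CPM in isotype neutrophils. The T cells divided into CD4 naive, CD4 effector-memory, regulatory, CD8 naive, CD8 intermediate (led by Tspan9), CD8 effector-memory, gamma-delta (with Blk among the leading genes), Klra (led by Klra7 and Klra1) and dividing clusters. Subset shares differed between the libraries: CD4 naive cells made up 26.6% of PD-1 agonist T cells and 21.7% of isotype T cells, and dividing cells 7.22% of PD-1 agonist T cells and 10.5% of isotype T cells.

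The T cell receptor has no enzyme of its own. Its antigen-binding chains pair with the CD3 chains and the zeta chain, whose tails are phosphorylated by the kinase Lck and then bind the kinase Zap70. Zap70 phosphorylates the scaffold Lat, which with Lcp2 (SLP-76) gathers phospholipase C gamma 1, Vav1 and other effectors, and these lead to calcium entry, NFAT and NF-kappaB activity. NK cells lack the rearranged receptor but use the zeta chain, Lck, Fyn and Zap70 behind their own activating receptors. The phosphatases Ptprc (CD45) and Ptpn22, the kinase Csk, ubiquitin ligases and diacylglycerol kinases tune the signal.

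The CD3 genes are shown with their promoters because their RNA was low outside T cells, while that of the zeta chain gene Cd247 was shared with NK cells. In the GRCm38 annotation (GENCODE vM21), Cd3g (chr9:44969572-44980431, minus strand), Cd3d (chr9:44981786-44987339, plus strand) and Cd3e (chr9:44998740-45009627, minus strand) lie side by side. The starts of Cd3d and Cd3g face away from each other with 1354 bases between them. Cd247 lies apart at chr1:165788681-165877277 on the plus strand. The 250 bases before each RefSeq start (GRCm38.p6) are given 5′ to 3′ on the strand of the gene, and capitals mark the letters AGGAAG or their complement CTTCCT, a core that ETS factors bind. The windows are chr9:44981536-44981785 for Cd3d, chr9:45009612-45009861 for Cd3e, chr9:44980432-44980681 for Cd3g and chr1:165788431-165788680 for Cd247.
Cd3d: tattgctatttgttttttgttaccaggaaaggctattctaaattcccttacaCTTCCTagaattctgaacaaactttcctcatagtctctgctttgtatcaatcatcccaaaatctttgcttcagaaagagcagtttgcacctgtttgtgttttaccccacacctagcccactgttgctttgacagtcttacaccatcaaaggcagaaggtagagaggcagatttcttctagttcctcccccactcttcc
Cd3e: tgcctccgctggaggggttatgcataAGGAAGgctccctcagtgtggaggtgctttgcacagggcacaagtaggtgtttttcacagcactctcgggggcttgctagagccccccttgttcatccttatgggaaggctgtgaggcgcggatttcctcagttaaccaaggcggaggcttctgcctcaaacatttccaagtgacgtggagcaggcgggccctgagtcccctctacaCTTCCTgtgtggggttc
Cd3g: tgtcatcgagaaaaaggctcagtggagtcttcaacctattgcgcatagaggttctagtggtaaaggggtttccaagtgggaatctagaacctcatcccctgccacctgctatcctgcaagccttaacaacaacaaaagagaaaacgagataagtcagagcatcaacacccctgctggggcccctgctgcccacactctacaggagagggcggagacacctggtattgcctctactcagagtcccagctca
Cd247: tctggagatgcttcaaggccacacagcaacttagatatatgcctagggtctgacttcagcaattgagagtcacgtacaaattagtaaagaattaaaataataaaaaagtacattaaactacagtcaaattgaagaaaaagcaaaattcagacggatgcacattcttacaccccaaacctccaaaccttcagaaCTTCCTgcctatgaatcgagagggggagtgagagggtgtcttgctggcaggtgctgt
Promoters were matched for 27 of the 33 genes, in 41 windows. AGGAAG on either strand was present in 25 of these 41 windows (61%) and in 9686 of 32851 windows of all genes (29.5%). CAGNTG, the E box, was present in 46.3% of the windows of the 33 genes and 44.8% of all windows. TGTGGT, which RUNX factors bind, was present in 12.2% of the windows of the 33 genes and 14% of all windows. Motifs were counted separately even where they overlapped, and some genes have several windows. These are matches of letters only.

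Among the receptor chains, the 3 CD3 genes were far lower in NK cells than in T cells. In a comparison of T cells with NK cells scaled within each library, Cd3e was at 403 CPM in T cells against 6.67 CPM in NK cells of the PD-1 agonist library, and at 444 CPM in T cells against 6.99 CPM in NK cells of the isotype library. The log2 ratio of T cells over NK cells was 5.92 (5.38 to 6.51) in the PD-1 agonist library and 5.99 (5.47 to 6.56) in the isotype library. For Cd3d the ratio was 4.81 (4.50 to 5.14) in the PD-1 agonist library and 5.95 (5.53 to 6.41) in the isotype library, and for Cd3g it was 4.68 (4.32 to 5.08) in the PD-1 agonist library and 5.40 (4.95 to 5.89) in the isotype library. Cd247, which encodes the zeta chain, was shared. It was at 188 CPM in T cells against 136 CPM in NK cells of the PD-1 agonist library, and at 183 CPM in T cells against 144 CPM in NK cells of the isotype library. Its log2 ratios were 0.47 (0.32 to 0.61) in the PD-1 agonist library and 0.35 (0.21 to 0.48) in the isotype library.

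Detection per cell showed the same split. At least 1 count of Cd3e was found in 62.6% of PD-1 agonist T cells and 70.9% of isotype T cells, in 1.67% of PD-1 agonist NK cells and 1.64% of isotype NK cells, and in 1.08% of PD-1 agonist neutrophils and 1.38% of isotype neutrophils. Neutrophils do not use Cd3e and stand for the background of free RNA, and their median total was 1509 counts in the PD-1 agonist library and 1631 in the isotype library, against 2484 counts in PD-1 agonist T cells and 2861 counts in isotype T cells. With every cell thinned to 1000 counts, Cd3e was found in 33.1% of PD-1 agonist T cells and 36.3% of isotype T cells. Cd247 was found in 38.7% of PD-1 agonist T cells and 42.5% of isotype T cells, and in 32.9% of PD-1 agonist NK cells and 36.7% of isotype NK cells, with 1.08% of PD-1 agonist neutrophils and 0.564% of isotype neutrophils as background. Thinned to 1000 counts, Cd247 was found in 17.5% of PD-1 agonist T cells against 14.4% of PD-1 agonist NK cells, and in 17.8% of isotype T cells against 14.6% of isotype NK cells.

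**Figure D1:**
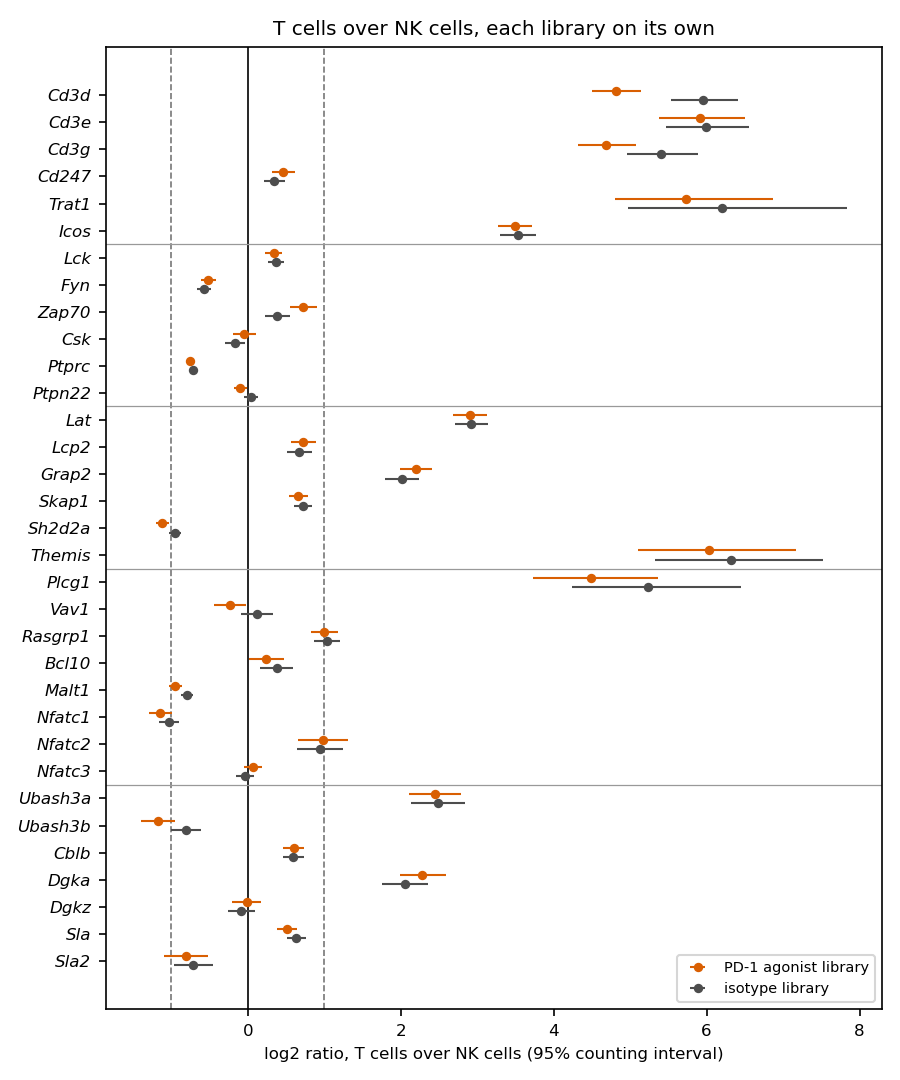
Log2 ratio of T cells over NK cells for the 33 genes (rows, ordered by role), computed within the PD-1 agonist library (orange) and the isotype library (grey), with 95% counting intervals as bars and dashed lines at 2-fold. The 3 CD3 genes, Trat1, Themis and Plcg1 lie above 4 in both libraries, whereas Cd247, Lck, Zap70 and Fyn lie between -0.57 and 0.73.

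Over the whole list, 11 of 33 genes were at least 2-fold higher in T cells than in NK cells in both libraries with intervals that exclude no change, against a background of 5.85% of 10401 genes. 1 gene, Nfatc1, was at least 2-fold lower, against a background of 4.88%. The median log2 ratio in the PD-1 agonist library was 0.60 for the 33 genes and 0.01 for all genes, and in the isotype library it was 0.60 for the 33 genes and 0.02 for all genes. Beyond the CD3 genes, the 11 comprised Trat1, a transmembrane adaptor that associates with the receptor, and Icos, a costimulatory receptor. They also comprised the adaptors Lat, Grap2 and Themis, phospholipase C gamma 1 (Plcg1), and the dampers Ubash3a and Dgka.

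Themis, a regulator needed for thymic selection, was at 140 CPM in T cells against 2.14 CPM in NK cells of the PD-1 agonist library and at 148 CPM in T cells against 1.87 CPM in NK cells of the isotype library. A count of it was found in 0.606% of PD-1 agonist NK cells and 0.573% of isotype NK cells, beside a neutrophil share of 0.415% in the PD-1 agonist library and 0.41% in the isotype library. Plcg1 was at 74.7 CPM in T cells against 3.34 CPM in NK cells of the PD-1 agonist library and at 70.2 CPM in T cells against 1.87 CPM in NK cells of the isotype library. The NK values of Plcg1 rest on 14 PD-1 agonist and 8 isotype counts. Lat was lower in NK cells but above background, with a count in 11.9% of PD-1 agonist NK cells and 14.0% of isotype NK cells against 1.33% of PD-1 agonist neutrophils and 2.15% of isotype neutrophils.

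The proximal kinases were shared between T and NK cells. Lck, the Src-family kinase that starts the signal, gave log2 ratios of T over NK of 0.34 (0.23 to 0.45) in the PD-1 agonist library and 0.37 (0.27 to 0.47) in the isotype library. For Zap70, which is recruited to phosphorylated CD3 and zeta chains, the ratios were 0.73 (0.55 to 0.90) in the PD-1 agonist library and 0.39 (0.23 to 0.55) in the isotype library. Fyn, a related Src-family kinase, was lower in T cells, at -0.52 (-0.61 to -0.42) in the PD-1 agonist library and -0.57 (-0.66 to -0.48) in the isotype library. The adaptor Sh2d2a (TSAd), the NF-kappaB scaffold protease Malt1 and the transcription factor Nfatc1 were also lower in T cells. Their ratios were -1.12, -0.95 and -1.15 in the PD-1 agonist library and -0.95, -0.80 and -1.03 in the isotype library.

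Several of the 33 genes were highest outside T and NK cells. Fyn reached 582 CPM in PD-1 agonist and 532 CPM in isotype plasmacytoid dendritic cells. The adaptor Sla2, which lowers receptor signalling, was at 184 CPM in PD-1 agonist and 181 CPM in isotype plasmacytoid dendritic cells, against 29.7 CPM in PD-1 agonist and 33.3 CPM in isotype T cells. Lcp2 was highest in neutrophils, at 342 CPM in PD-1 agonist and 383 CPM in isotype cells, and near 0 in B cells, at 4.88 CPM in PD-1 agonist and 5.54 CPM in isotype cells. The exchange factor Vav1 was also highest in neutrophils, at 178 CPM in PD-1 agonist and 207 CPM in isotype cells. Csk, the kinase that holds Src-family kinases inactive, and the transcription factor Nfatc3 were highest in B cells, with Csk at 268 CPM in PD-1 agonist and 286 CPM in isotype cells. Malt1 was highest in conventional dendritic cells, at 1017 CPM in PD-1 agonist and 930 CPM in isotype cells.

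**Figure D2:**
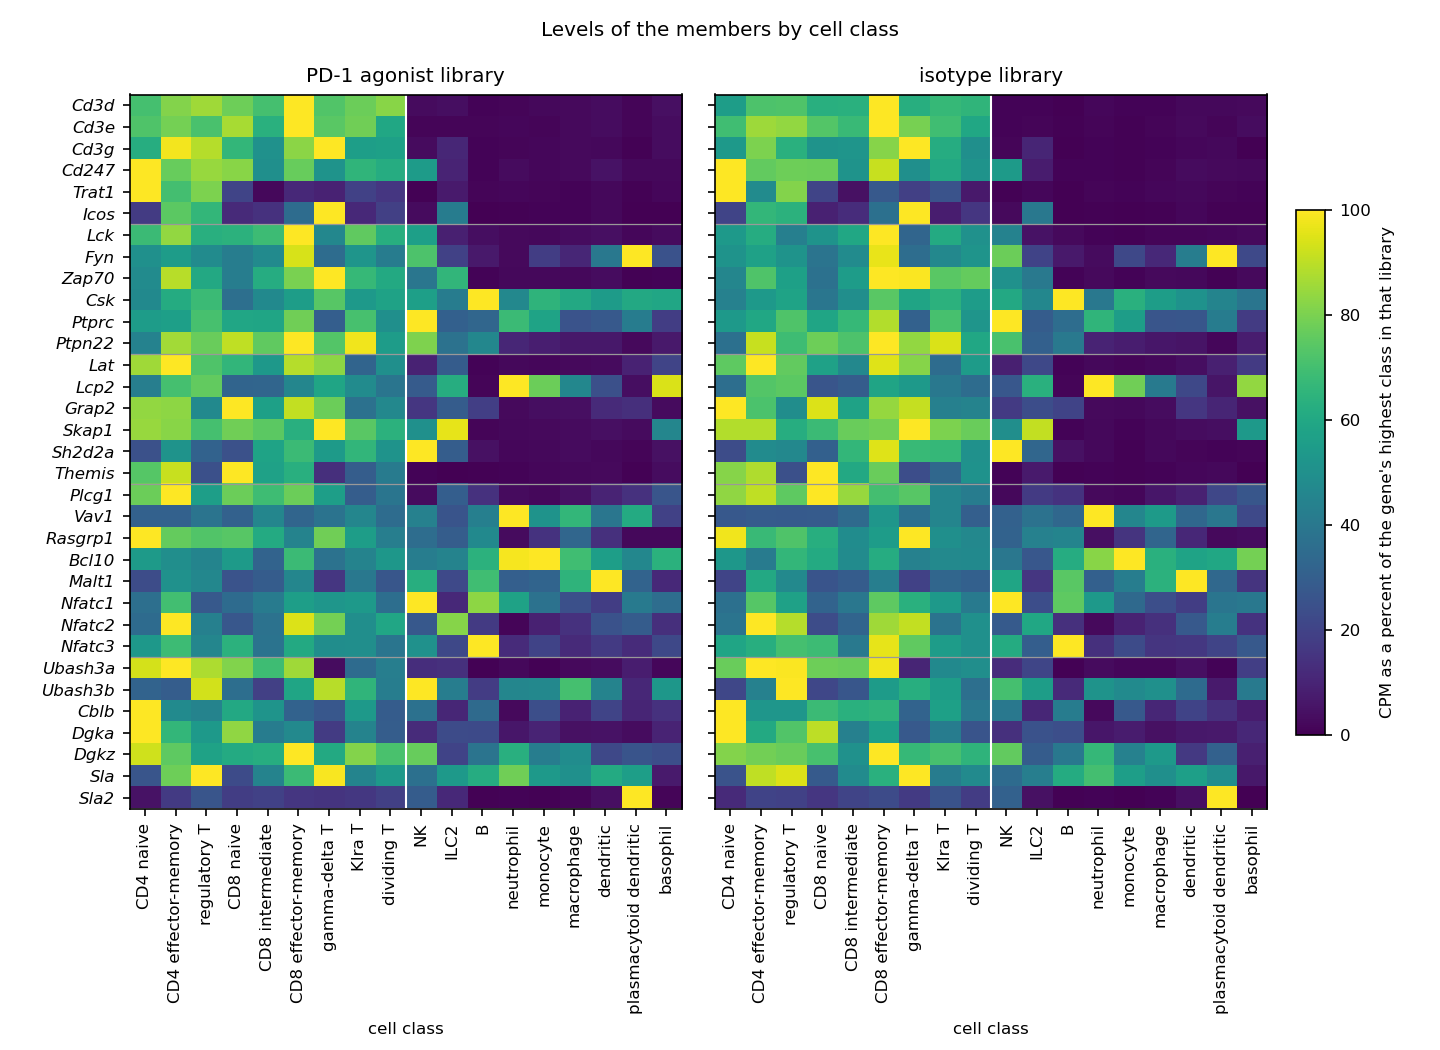
CPM of each of the 33 genes (rows, ordered by role) in each cell class (columns), as a percent of that gene's highest class in the same library, with the PD-1 agonist library left and the isotype library right; the white line separates T cell subsets from other classes. The CD3 genes and Themis are dark right of the line, whereas Csk, Lcp2, Vav1, Malt1, Nfatc3 and Sla2 peak there.

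Within the T cells, naive, effector-memory, regulatory and gamma-delta clusters differed in a minority of the 33 genes. In CD4 effector-memory over CD4 naive cells, 3 of the 32 genes with enough counts were at least 2-fold higher in both libraries (background 6.61%) and 1 was lower (background 3.61%). Icos was at 1064 CPM in CD4 effector-memory cells against 272 CPM in CD4 naive cells of the PD-1 agonist library, and at 938 CPM against 328 CPM in the same subsets of the isotype library. Its log2 ratios were 1.97 (1.78 to 2.16) in the PD-1 agonist library and 1.52 (1.33 to 1.70) in the isotype library. The calcineurin target Nfatc2 and Sla, an adaptor that promotes receptor degradation, gave 1.38 and 1.41 in the PD-1 agonist library and 1.21 and 1.66 in the isotype library. Cblb, a ubiquitin ligase that restrains T cell activation, was lower in CD4 effector-memory cells, at 193 CPM against 442 CPM in CD4 naive cells of the PD-1 agonist library and 169 CPM against 365 CPM in the isotype library.

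Regulatory T cells, which suppress other T cells, differed from CD4 naive cells in 6 of 32 genes. Icos, Sla and Ubash3b were higher (background 6.44%), with log2 ratios of 1.71, 1.69 and 1.33 in the PD-1 agonist library and 1.42, 1.67 and 2.0 in the isotype library. Ubash3b (Sts-1) is a phosphatase that acts on Zap70. Cblb, Grap2 and Themis were lower (background 7.77%), and Themis was at 50.2 CPM in regulatory T cells against 178 CPM in CD4 naive cells of the PD-1 agonist library and at 51.8 CPM against 203 CPM in the isotype library.

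Gamma-delta T cells differed from CD4 naive cells in 10 of 32 genes. Icos, Sla and Ubash3b were higher (background 7.6%), and Icos reached 1354 CPM in PD-1 agonist and 1384 CPM in isotype gamma-delta T cells on the scale of this contrast. Cblb, Cd247, Dgka, Ptprc, Themis, Trat1 and Ubash3a were lower (background 9.64%). The list of dividing-cell markers summed to 1367 CPM in PD-1 agonist and 1084 CPM in isotype gamma-delta T cells. In CD4 naive cells it summed to 46.5 CPM in the PD-1 agonist and 72.7 CPM in the isotype library. The part of dividing cells in this contrast was not tested. Ubash3a, a relative of Ubash3b with little phosphatase activity, was at 4.54 CPM in gamma-delta T cells against 153 CPM in CD4 naive cells of the PD-1 agonist library, and at 13.1 CPM against 117 CPM in the isotype library. These gamma-delta values of Ubash3a rest on 2 PD-1 agonist and 6 isotype counts. Its log2 ratios were -5.08 (-8.13 to -3.20) in the PD-1 agonist library and -3.15 (-4.63 to -1.98) in the isotype library. Dgka, a kinase that removes the second messenger diacylglycerol, gave -2.79 (-3.69 to -2.02) in the PD-1 agonist library and -2.10 (-2.83 to -1.44) in the isotype library.

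Among CD8 cells, Sh2d2a and Icos were at least 2-fold higher in effector-memory than in naive cells (background 4.2%), with log2 ratios of 1.22 and 1.33 in the PD-1 agonist library and 1.39 and 1.74 in the isotype library. None of 31 genes was lower, against a background of 7.14%. CD8 intermediate cells had higher Sh2d2a than CD8 naive cells (background 1.67%) and lower Trat1 (background 1.3%). The ratios were 1.28 for Sh2d2a and -3.11 for Trat1 in the PD-1 agonist library, and 1.12 for Sh2d2a and -2.14 for Trat1 in the isotype library. Trat1 in CD8 intermediate cells rests on 6 PD-1 agonist and 15 isotype counts. Klra T cells were not named as CD8 cells: their cluster met the gamma-delta list, with Tcrg-C2 among its leading genes. The CD8 list summed to 3194 CPM in PD-1 agonist and 2906 CPM in isotype Klra T cells, against 975 CPM and 1174 CPM in CD8 naive cells. The NK list summed to 1606 CPM and 1395 CPM in Klra T cells, against 108 CPM and 126 CPM in CD8 naive cells, in the same order of libraries. The part of these lists was not tested. Klra T cells had higher Sh2d2a than CD8 naive cells, at 1.26 in the PD-1 agonist library and 1.01 in the isotype library (background 3.64%). Dgka, Grap2, Plcg1 and Themis were lower (background 2.59%), with Themis at -1.90 in the PD-1 agonist library and -1.69 in the isotype library.

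Trat1 was highest in CD4 naive cells in both libraries. It was at 58.1 CPM in CD8 naive cells against 289 CPM in CD4 naive cells of the PD-1 agonist library, and at 53.8 CPM against 264 CPM in the isotype library. CD8 naive over CD4 naive gave log2 ratios of -2.31 (-2.73 to -1.91) in the PD-1 agonist library and -2.29 (-2.74 to -1.87) in the isotype library, and Trat1 was the 1 gene lower among 32 (background 0.979%). Ptpn22, a phosphatase that acts on Lck and Zap70, was the 1 gene higher in CD8 naive cells, at 1.01 in the PD-1 agonist library and 1.06 in the isotype library (background 1.16%). In dividing over non-dividing T cells, Dgka and Trat1 were lower (background 4.43%), with Dgka at -1.20 in the PD-1 agonist library and -1.35 in the isotype library, and no member was at least 2-fold higher (background 5.51%).

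Between treatments, the 33 genes differed little in T cells as a whole. All 33 had at least 50 counts over both libraries, and none reached a 1.5-fold difference with an interval that excludes no change. The background for such a difference was 4.38% of 11143 genes higher and 2.27% lower in PD-1 agonist T cells. Outside counting error at any size, 6 genes were higher (background 11.2%) and 5 were lower (background 11.2%), and 22 were within it. The median log2 ratio of PD-1 agonist over isotype was -0.00 for the 33 genes and -0.02 for all genes, with a range of -0.30 to 0.42 and a median interval half-width of 0.11.

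Among the receptor chains, Cd3d was at 530 to 568 CPM in the 3 PD-1 agonist tables and at 627 to 657 CPM in the 3 isotype tables. Tables of a treatment share cells, so their spread is no replicate error. Genes given by table were picked by their pooled intervals, so a gap between tables adds no support to the pooled ratio. Summed over the pool, Cd3d was at 549 CPM in PD-1 agonist T cells against 640 CPM in isotype T cells, a log2 ratio of -0.22 (-0.28 to -0.16). Cd3e was also lower, at 398 CPM in PD-1 agonist T cells against 436 CPM in isotype T cells, or -0.13 (-0.21 to -0.06). Cd3g and Cd247 were within counting error, at -0.07 (-0.15 to 0.01) and 0.05 (-0.06 to 0.16). Trat1 had the highest ratio of the list, 0.42 (0.27 to 0.57). It was at 113, 106 and 106 CPM in the PD-1 agonist tables and at 82.2, 85.5 and 91.4 CPM in the isotype tables. With the same subset weights in both libraries, each subset's share of the summed counts of both, the ratio of Trat1 was 0.25. CD4 naive cells, in which Trat1 was highest, made up a larger share of PD-1 agonist T cells than of isotype T cells. The part of subset shares in the ratio of Trat1 was not tested beyond this weighting. Icos was at 464 CPM in PD-1 agonist T cells and 427 CPM in isotype T cells, or 0.12 (0.05 to 0.19). The ratio of Icos was 0.06 without dividing T cells, 0.07 without the table of PD-1 agonist mouse 1 and 0.03 with T cells taken as cells with a count of Trac, Trbc1 or Trbc2.

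**Figure D3:**
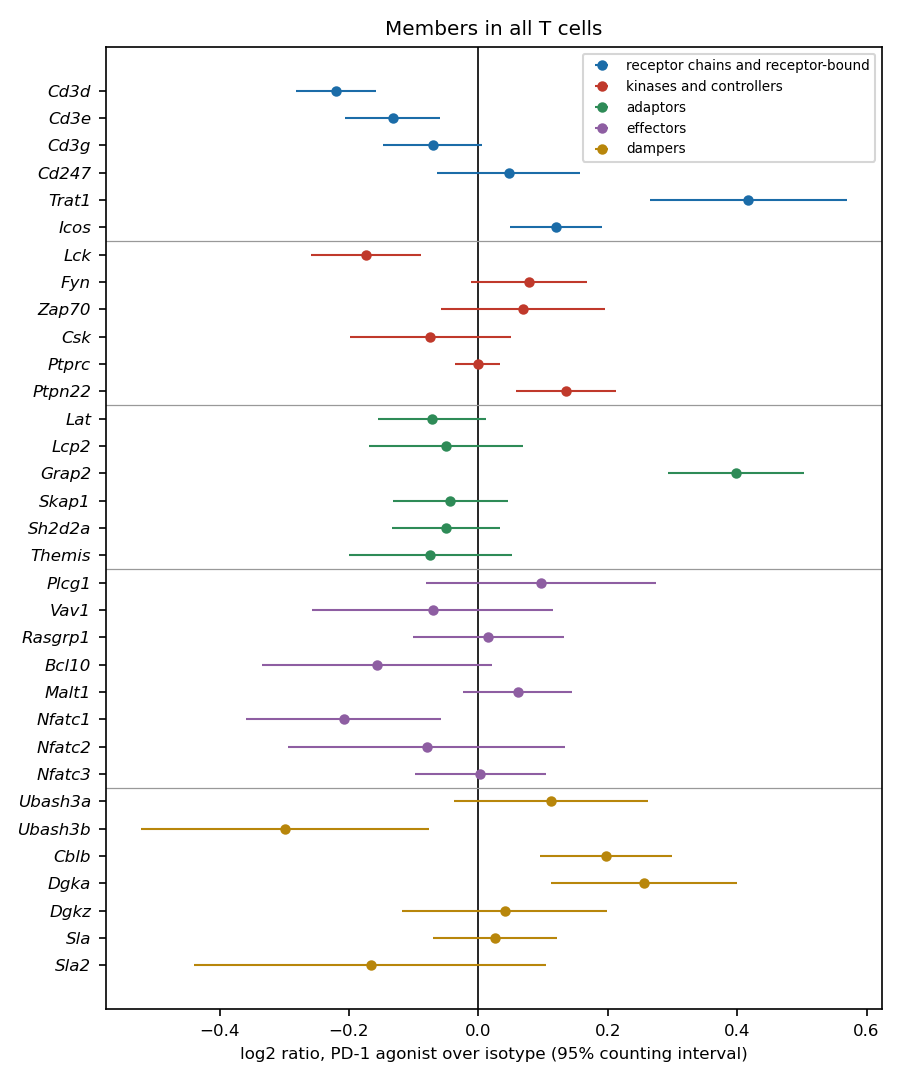
Log2 ratio of PD-1 agonist over isotype in all T cells for the 33 genes (rows, ordered by role), with 95% counting intervals as bars. Values run from -0.30 for Ubash3b to 0.42 for Trat1, and none is past 1.5-fold.

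Among the kinases and their controllers, Lck was lower, at 292 CPM in PD-1 agonist T cells against 329 CPM in isotype T cells, or -0.17 (-0.26 to -0.09). The 3 PD-1 agonist tables held 282 to 289 CPM of Lck and the 3 isotype tables held 315 to 328 CPM. Ptpn22 was higher, at 389 CPM in PD-1 agonist T cells against 354 CPM in isotype T cells, or 0.14 (0.06 to 0.21). Fyn at 0.08 (-0.01 to 0.17), Zap70 at 0.07 (-0.06 to 0.19), Csk at -0.07 (-0.20 to 0.05) and Ptprc at -0.00 (-0.04 to 0.03) were within counting error. The interval of Ptprc, which had 12128 PD-1 agonist counts and 14840 isotype counts, was the narrowest of the list.

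Among the adaptors, Grap2 (GADS), which joins Lat to Lcp2, was higher. The 3 PD-1 agonist tables held 236, 231 and 226 CPM and the 3 isotype tables held 178, 172 and 179 CPM. In the pools it was at 234 CPM in PD-1 agonist T cells against 177 CPM in isotype T cells, or 0.40 (0.29 to 0.50). With the same subset weights in both libraries the ratio of Grap2 was 0.33. The partners of Grap2 did not differ outside counting error, with Lat at -0.07 (-0.15 to 0.01) and Lcp2 at -0.05 (-0.17 to 0.07). Skap1, which links the receptor to integrin adhesion, was at -0.04 (-0.13 to 0.05), Sh2d2a at -0.05 (-0.13 to 0.03) and Themis at -0.07 (-0.20 to 0.05).

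Among the effectors, Nfatc1 was lower, at 93.9 CPM in PD-1 agonist T cells against 109 CPM in isotype T cells, or -0.21 (-0.36 to -0.06). The other effectors were within counting error. Plcg1 was at 0.10 (-0.08 to 0.27), Vav1 at -0.07 (-0.26 to 0.11) and the Ras activator Rasgrp1 at 0.02 (-0.10 to 0.13). Bcl10, the partner of Malt1, was at -0.16 (-0.33 to 0.02) and Malt1 itself at 0.06 (-0.02 to 0.15). Nfatc2 was at -0.08 (-0.29 to 0.13) and Nfatc3 at 0.00 (-0.10 to 0.10).

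Among the dampers, Dgka and Cblb were higher and Ubash3b was lower. Dgka was at 119 CPM in PD-1 agonist T cells against 99.97 CPM in isotype T cells, or 0.26 (0.11 to 0.40). The PD-1 agonist tables held 117 to 120.5 CPM of Dgka and the isotype tables held 88.1 to 107 CPM. Cblb was at 232 CPM in PD-1 agonist T cells against 202 CPM in isotype T cells, or 0.20 (0.10 to 0.30). The values of its tables were apart, with 215 to 244 CPM in PD-1 agonist and 200 to 208 CPM in isotype. Counting intervals overlapped, at 198 to 233 CPM for PD-1 agonist mouse 3 and 194 to 222 CPM for isotype mouse 1. With the same subset weights in both libraries the ratios were 0.14 for Dgka and 0.11 for Cblb. Dgka was at 0.13 with T cells taken as cells with a count of Trac, Trbc1 or Trbc2. Ubash3b was at 42.4 CPM in PD-1 agonist T cells against 52.1 CPM in isotype T cells, or -0.30 (-0.52 to -0.08), on 280 PD-1 agonist and 421 isotype counts. Its tables overlapped, with 37.8 to 47.3 CPM in PD-1 agonist and 46.9 to 57 CPM in isotype. The ratio of Ubash3b was -0.17 without the table of isotype mouse 2 and -0.07 with T cells taken as cells with a count of Trac, Trbc1 or Trbc2. Ubash3a at 0.11 (-0.04 to 0.26), the diacylglycerol kinase Dgkz at 0.04 (-0.12 to 0.20), Sla at 0.03 (-0.07 to 0.12) and Sla2 at -0.17 (-0.44 to 0.10) were within counting error.

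**Figure D4:**
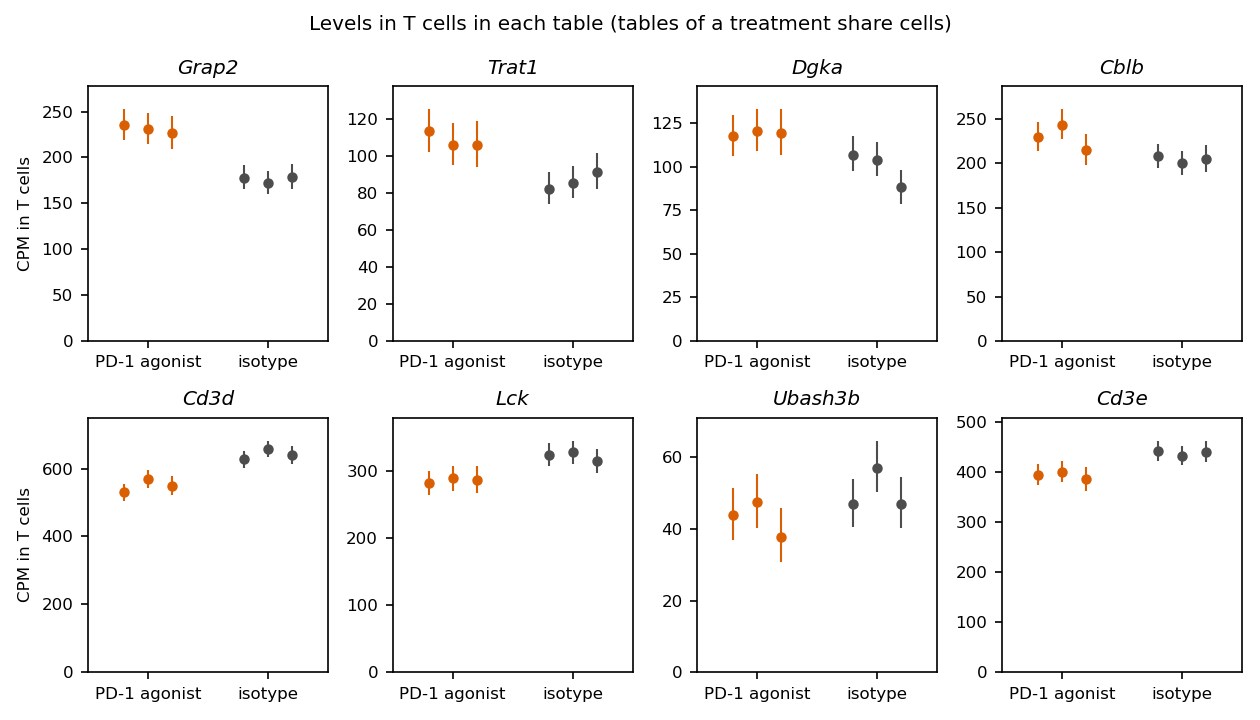
CPM in T cells of the 3 PD-1 agonist tables (orange) and the 3 isotype tables (grey) for the members with the interval bound farthest from no change in each direction; bars are 95% counting intervals. Tables of a treatment share cells and the genes were picked by their pooled intervals, so a gap between tables adds no support. The tables of Grap2 and Cd3d do not overlap between treatments, and those of Ubash3b do.

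Lists of other markers moved with these values in the same T cells. The naive-type list summed to 4452 CPM in PD-1 agonist T cells and 3799 CPM in isotype T cells. In PD-1 agonist T cells the effector-memory list summed to 3597 CPM, the CD8 list to 1355 CPM and the dividing list to 964 CPM, against 4143 CPM, 1646 CPM and 1224 CPM for the same lists in isotype T cells. The neutrophil list, markers of another cell type, summed to 236 CPM in PD-1 agonist T cells and 176 CPM in isotype T cells. The classical monocyte list summed to 1296 CPM in PD-1 agonist T cells and 1664 CPM in isotype T cells. Most of that list was Ly6c2, which CD8 T cells also express, at 720 CPM in PD-1 agonist T cells and 980 CPM in isotype T cells. The part of these differences in the values of the 33 genes was not tested beyond the use of the same subset weights in both libraries. Without dividing T cells, 7 genes were higher (background 9.61%) and 8 lower (background 10.2%) outside counting error.

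Of 65 other genes of the pathway, all of which had enough counts in T cells, 7 were higher (background 11.2%) and 14 lower (background 11.2%) outside counting error, 44 were within it, and 0 were past 1.5-fold. Their median log2 ratio was -0.03. Higher were Txk, a Tec-family kinase, at 523 CPM in PD-1 agonist T cells against 431 CPM in isotype T cells, or 0.28 (0.21 to 0.35), the adaptor Fyb (ADAP) at 0.16, Trac, the alpha chain constant region, at 0.12, the Csk-binding adaptor Pag1 at 0.21 and the Ras GTPase activator Rasa1 at 0.22. Lower were Cd8a at -0.33, the phosphatase Ptpn6 (SHP-1) at 96.8 CPM in PD-1 agonist T cells against 121 CPM in isotype T cells, or -0.32 (-0.47 to -0.17), the kinase Mapk3 (ERK1) at -0.43, the kinase Tec at -0.51 and the calcineurin subunit Ppp3cb at -0.25. Cd8a also served to name CD8 clusters.

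Subset by subset, most of the 33 genes were within counting error between treatments, and some of the rest recurred. Over the 9 T cell clusters, Grap2 was higher in 4 and Cd3d lower in 4, Cd3e and Cd3g were each lower in 3, and Icos was higher in 4 and lower in 1. How many of all genes recur in this way was not counted, so these counts have no background. All clusters come from the same pair of libraries. In CD4 naive cells, 583 in the PD-1 agonist library and 499 in the isotype library, 4 of 32 genes were higher (background 7.18%) and 1 lower (background 6.13%). Cblb was at 422 CPM in PD-1 agonist and 343 CPM in isotype CD4 naive cells, or 0.30, Ptpn22 at 0.36, Malt1 at 0.30 and Ubash3a at 0.40. Icos was at 259 CPM in PD-1 agonist and 308 CPM in isotype CD4 naive cells, or -0.25. In CD4 effector-memory cells, 276 in the PD-1 agonist library and 304 in the isotype library, 5 of 33 genes were higher (background 7.13%) and 3 lower (background 8.09%). Trat1 was at 203 CPM in PD-1 agonist and 126 CPM in isotype cells, or 0.68 (0.34 to 1.03), and Grap2 at 276 CPM in PD-1 agonist and 189 CPM in isotype cells, or 0.55. Zap70 was at 0.40, Nfatc3 at 0.31 and Icos at 0.17. Ubash3b was at 28.9 CPM in PD-1 agonist and 58.6 CPM in isotype cells, or -1.02 (-1.78 to -0.30), on 23 PD-1 agonist and 58 isotype counts. Cd3d was at -0.28 and Cd3e at -0.29. The CD8 list in these cells summed to 285 CPM in PD-1 agonist and 516 CPM in isotype cells, and its part was not tested.

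In regulatory T cells, 113 in the PD-1 agonist library and 141 in the isotype library, 0 of 30 genes were higher (background 7.1%) and 4 lower (background 8.29%). Nfatc1 was at 60.0 CPM in PD-1 agonist and 131 CPM in isotype cells, or -1.12 (-1.92 to -0.38), on 21 PD-1 agonist and 56 isotype counts. Nfatc2 was at 40 CPM in PD-1 agonist and 86.3 CPM in isotype cells, or -1.11 (-2.11 to -0.19), on 14 PD-1 agonist and 37 isotype counts. Cd3e was at -0.41 and Sh2d2a at -0.44. Markers of other cell types moved in the same cells. The NK list summed to 699 CPM in PD-1 agonist and 118 CPM in isotype regulatory T cells, with all 12 genes higher in PD-1 agonist cells; 0 of the 12 were at 0 in PD-1 agonist cells and 5 in isotype cells, Ncr1, Klrb1c and Klra8 among them. The CD8 list summed to 699 CPM in PD-1 agonist and 186 CPM in isotype cells, and the gamma-delta list to 11.5 CPM in PD-1 agonist and 55.7 CPM in isotype cells. Their part in the 4 lower values was not tested.

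Of the CD8 clusters, CD8 naive cells had 4 of 32 genes higher (background 7.02%) and 0 lower (background 5.83%), namely Grap2 at 332 CPM in PD-1 agonist and 249 CPM in isotype cells, or 0.42, Ptpn22 at 0.31, Icos at 0.35 and Fyn at 0.27. CD8 intermediate cells had 1 of 32 higher (background 6.92%), Grap2 at 0.32, and 7 lower (background 6.77%). The 7 comprised the 3 CD3 genes, with Cd3d at 496 CPM in PD-1 agonist and 617 CPM in isotype cells, or -0.32, Cd3g at -0.32 and Cd3e at -0.27, and also Lck at -0.29, Ptprc at -0.14, Ubash3b at -0.94 and Bcl10 at -0.72. CD8 effector-memory cells, 89 in the PD-1 agonist library and 124 in the isotype library, had 0 of 29 higher (background 5.67%) and 6 lower (background 13.4%). Their median log2 ratio was -0.25, beside -0.11 for all genes in these cells. Cd3d was at 703 CPM in PD-1 agonist and 969 CPM in isotype cells, or -0.46, and Lck at 422 CPM in PD-1 agonist and 593 CPM in isotype cells, or -0.49. Vav1 was at -0.91, Cblb at -0.76, Nfatc3 at -0.49 and Sh2d2a at -0.35. The gamma-delta list in these cells summed to 47 CPM in PD-1 agonist and 262 CPM in isotype cells, with 8 of its 12 genes at 0 in PD-1 agonist cells and 6 in isotype cells. The NK list summed to 4977 CPM in PD-1 agonist and 3796 CPM in isotype cells, most of it Gzma, which effector CD8 cells also express. The part of these lists was not tested.

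In gamma-delta T cells, 0 of 27 genes were higher (background 8.17%) and 3 lower (background 6.59%), Rasgrp1 at 188 CPM in PD-1 agonist and 264 CPM in isotype cells, or -0.49, Nfatc3 at -0.44 and Cd3g at -0.26. In Klra T cells, 2 of 33 were higher (background 8.89%), Icos at 0.54 and Malt1 at 0.41, and 2 lower (background 6.55%), Cd3g at -0.41 and Cd3d at -0.25. In dividing T cells, 4 of 33 were higher (background 7.01%) and 2 lower (background 7.72%). Trat1 was at 45.1 CPM in PD-1 agonist and 17.9 CPM in isotype dividing T cells, or 1.33 (0.67 to 2.01), on 53 PD-1 agonist and 32 isotype counts. Grap2 was at 0.40, Sla at 0.24 and Icos at 0.23, with Lat at -0.31 and Skap1 at -0.27.

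**Figure D5:**
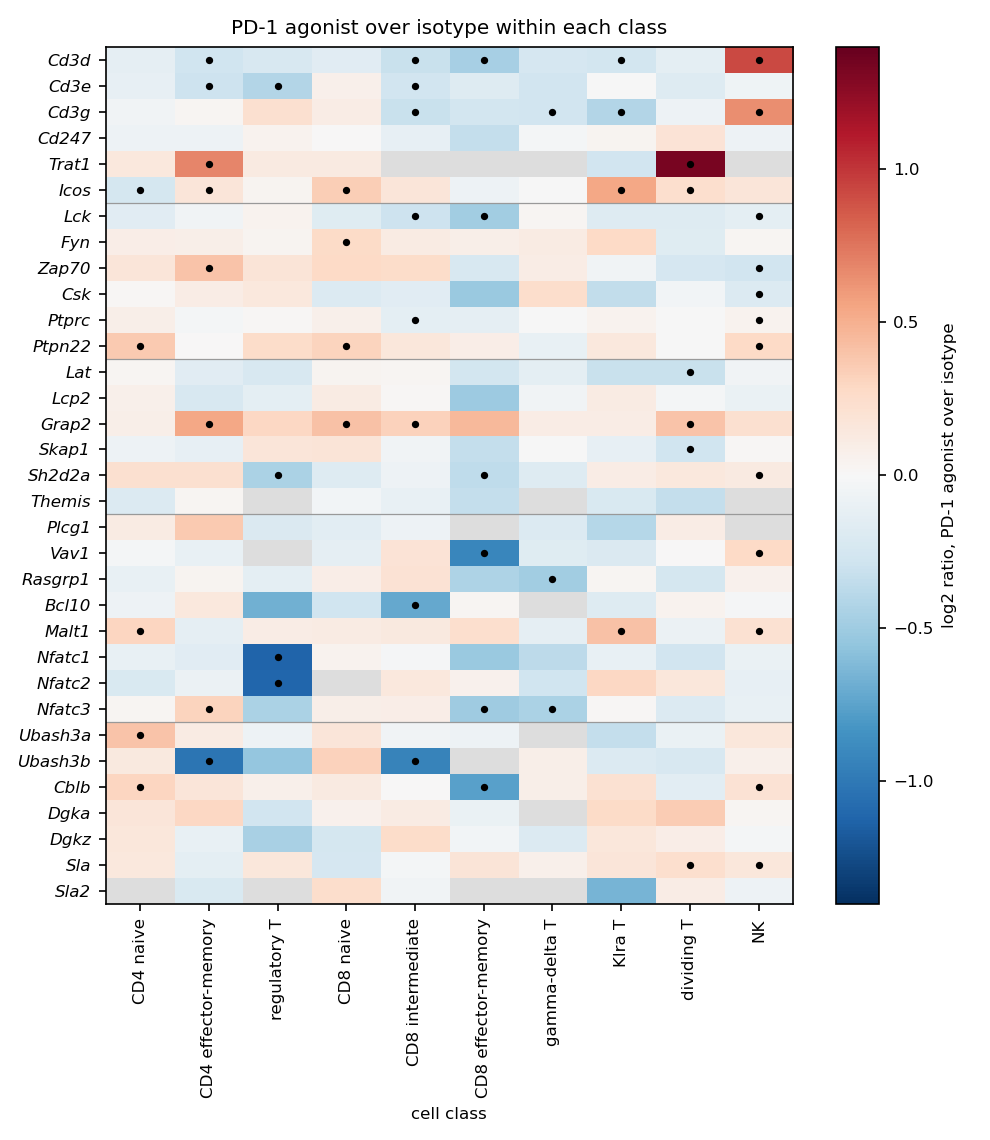
Log2 ratio of PD-1 agonist over isotype for the 33 genes (rows) within 9 T cell clusters and NK cells (columns), red where higher and blue where lower in the PD-1 agonist library, grey where there were too few counts, with dots where the 95% counting interval excludes 0. Grap2 is dotted and red in 4 of the T cell clusters, and Cd3d is dotted and blue in 4 of them and red in NK cells. How often all genes recur in this way was not counted.

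In NK cells, 9 of 30 genes were higher in the PD-1 agonist library (background 8.88%) and 3 lower (background 8.07%), with a median of 0.03. The largest ratios were those of genes that NK cells hold little of. Cd3d was at 20.1 CPM in PD-1 agonist and 10.6 CPM in isotype NK cells, or 0.93 (0.39 to 1.48), on 83 PD-1 agonist and 45 isotype counts, and Cd3g at 14.8 CPM in PD-1 agonist and 9.41 CPM in isotype NK cells, or 0.65, on 61 PD-1 agonist and 40 isotype counts. Cd3d was found in 3.63% of PD-1 agonist NK cells and 2.54% of isotype NK cells, against 1.41% of PD-1 agonist neutrophils and 2.41% of isotype neutrophils. Thinned to 1000 counts, Cd3d was found in 1.32% of PD-1 agonist NK cells against 0.669% of PD-1 agonist neutrophils, and in 0.941% of isotype NK cells against 1.11% of isotype neutrophils, at the background in the isotype library. The T cell marker list was at 1257 CPM in PD-1 agonist NK cells and 1165 CPM in isotype NK cells, and 8 of its 11 genes were higher in PD-1 agonist NK cells; its part in the Cd3d and Cd3g values was not tested. Of the genes that NK cells use, Ptpn22 was at 428 CPM in PD-1 agonist and 353 CPM in isotype NK cells, or 0.28 (0.18 to 0.38), Vav1 at 0.28, Malt1 at 0.22, Cblb at 0.20, Sla at 0.16, Sh2d2a at 0.13 and Ptprc at 0.05. Zap70 was at 89.8 CPM in PD-1 agonist and 108 CPM in isotype NK cells, or -0.27 (-0.47 to -0.07), Csk at -0.19 and Lck at -0.14.

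Outside lymphocytes, T cell genes differed at low levels. In monocytes, 10 of 26 genes were higher in the PD-1 agonist library (background 10.3%) and 3 lower (background 12.8%), and 8 of the 10 were past 1.5-fold (background 4.91%). Sh2d2a was at 14.1 CPM in PD-1 agonist and 3.90 CPM in isotype monocytes, or 1.85 (1.08 to 2.69), on 66 PD-1 agonist and 18 isotype counts. Icos was at 14.7 CPM in PD-1 agonist and 4.55 CPM in isotype monocytes, or 1.70, Lck at 9.61 CPM in PD-1 agonist and 4.33 CPM in isotype monocytes, or 1.15, and Cd3d at 15.8 CPM in PD-1 agonist and 8.67 CPM in isotype monocytes, or 0.87. The T cell marker list moved with them: all 11 of its genes were higher in PD-1 agonist monocytes, none was at 0, and its sum was 149 CPM in PD-1 agonist and 66.9 CPM in isotype monocytes. In macrophages, 9 of 30 genes were higher (background 11.5%) and 1 lower (background 11.1%), among them Cd3g at 0.99 and Lck at 0.87, and the T cell list summed to 269 CPM in PD-1 agonist and 204 CPM in isotype cells. The part of T cell RNA or of T cells left in these clusters was not tested. Of genes at higher levels in monocytes, Ptprc was higher, at 0.11, and 3 were lower, Malt1 at 326 CPM in PD-1 agonist and 393 CPM in isotype monocytes, or -0.27 (-0.37 to -0.17), Lcp2 at -0.18 and Ubash3b at -0.47. In neutrophils, 4 of 25 genes were higher (background 12.5%) and 3 lower (background 13.1%). Ubash3b was lower, at 45.2 CPM in PD-1 agonist and 68.2 CPM in isotype cells, or -0.59 (-0.87 to -0.32), as were Vav1 at -0.22 and Lcp2 at -0.17. Sla at 0.24 and Ptprc at 0.12 were among the 4 higher genes. Of these 4, 1 was past 1.5-fold, beside 367 of all 7678 genes, and the highest ratio of the 25 genes was 0.78. The T cell list summed to 163 CPM in PD-1 agonist and 124 CPM in isotype neutrophils, with 9 of its 11 genes higher in PD-1 agonist cells. Its part was not tested. In B cells, 2 of 20 genes were higher (background 7.72%) and 0 lower (background 8.27%). Ptpn22 was at 246 CPM in PD-1 agonist and 201 CPM in isotype cells, or 0.29 (0.15 to 0.43), and Nfatc3 at 0.18.

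For 8 of the 33 genes (Cd247, Lcp2, Plcg1, Nfatc3, Dgka, Dgkz, Sla and Sla2) a coding gene overlaps on the opposite strand in the annotation. Whether reads were counted by strand is not given in the sources used here, so reads of these pairs may not be told apart.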

How the data were processed

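Lung CD45+ cells of 6 labelled samples were measured. The deposited tables hold 1 record per cell with estimated counts per gene, which need not be whole and which the authors left without normalization as far as the values show, and per the file headers a total count of each record and the percent of mitochondrial and ribosomal reads. The submitters' processing notes name Partek and mm10. The sources used here do not name the aligner or the counting settings. Of the nonzero gene values, 98.95% were whole numbers (tolerance 1e-6), and sums over cells were rounded. The tables' treatment column reads Untreated for the isotype samples, and the labels' term isotype is used.

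Table totals were 22202875 to 26365116 counts for PD-1 agonist and 25567520 to 30608477 counts for isotype. Barcodes shared within a treatment were kept once, from the record with the highest total, leaving 13728 PD-1 agonist and 12448 isotype barcodes. Cells were kept where the authors' column named CD3e+ held an entry other than N/A, which left 12216 PD-1 agonist and 11106 isotype cells. N/A was read as failing the authors' filter, which the column name does not state. The column is named for Cd3e, which is among the 33 genes. Doublets called with Scrublet (957 PD-1 agonist, 803 isotype) were removed. Cells were clustered with scanpy 1.11.5 and leidenalg 0.10.2 (Python 3.11.15) on 2000 variable genes without the 33 genes, scaled within each library, with 30 components, 15 neighbours and resolution 1. Clusters were named from marker lists, and 73 PD-1 agonist and 76 isotype cells in clusters that met no list or mixed lists stayed unnamed. The rule that names CD8 naive cells was revised after the clusters were seen.

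Counts were summed per class and treatment and scaled with TMM factors from edgeR 4.0.16 (R 4.3.3). Each log2 ratio has an exact Clopper-Pearson interval (scipy 1.17.1), and genes with at least 50 counts over both libraries were compared. CPM intervals are exact Poisson intervals. Ratios between classes were computed within each library and scaled over that pair of classes, so their CPM differ slightly from those between treatments, and a class difference was counted when at least 2-fold in both libraries. Reads from 1 cell share amplification, so intervals cover counting error only. No count model was fitted, because the 3 tables of a treatment are overlapping parts of 1 pool. The ratio step was tested on simulated data.

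Alternatives were scaling to totals, factors from DESeq2 1.42.0, no low-count filter, clustering with the 33 genes, resolution 2, doublets kept and leaving out each table. Further alternatives were the same subset weights in both libraries (each subset's share of the summed counts of both) and T cells by a count of Trac, Trbc1 or Trbc2. The last were leaving out each gene's highest cell and leaving out dividing T cells. All 33 genes are named, the pathway genes by interval bound (up to 5 each way), and values per table are given for up to 4 genes each way. The genes, the pathway list, the marker lists and these rules were chosen with earlier results of these data known.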

Additional observations from a re-analysis of the deposited data

Results flagged for a closer look

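Over the 9 T cell clusters and NK cells, the log2 ratio of PD-1 agonist over isotype of 9 of the 33 genes lay outside counting error on opposite sides in different classes. The same count over all genes was not made, so 9 of 33 has no background beside it. The difference between classes was not tested, and there is 1 pool per treatment. Cd3d was at 0.93 in NK cells and at -0.28 in CD4 effector-memory, -0.32 in CD8 intermediate, -0.46 in CD8 effector-memory and -0.25 in Klra T cells. Cd3g was at 0.65 in NK cells and at -0.32 in CD8 intermediate, -0.26 in gamma-delta and -0.41 in Klra T cells. Both rest on few counts in NK cells (83 PD-1 agonist and 45 isotype counts of Cd3d, 61 PD-1 agonist and 40 isotype counts of Cd3g).

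Icos was at 0.17 in CD4 effector-memory, 0.35 in CD8 naive, 0.54 in Klra and 0.23 in dividing T cells, and at -0.25 in CD4 naive cells. Cblb was at 0.30 in CD4 naive and 0.20 in NK cells, and at -0.76 in CD8 effector-memory cells. Nfatc3 was at 0.31 in CD4 effector-memory cells, and at -0.49 in CD8 effector-memory and -0.44 in gamma-delta T cells.

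Zap70 was at 0.40 in CD4 effector-memory and -0.27 in NK cells. Vav1 was at 0.28 in NK cells and -0.91 in CD8 effector-memory cells. Sh2d2a was at 0.13 in NK cells, and at -0.35 in CD8 effector-memory and -0.44 in regulatory T cells. Ptprc was at 0.052 in NK cells and -0.14 in CD8 intermediate cells.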

How the results depend on the processing

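No paired analysis was possible because the tables of a treatment share cells and form 1 pool, so the mouse numbers mark no separate samples. Of the counts in all T cells and the T over NK count, 1 moved by over 1.5 times: the 5 genes lower in PD-1 agonist T cells outside counting error were 8 with doublets kept, 9 with T cells taken as cells with a count of Trac, Trbc1 or Trbc2, and 8 without dividing T cells, an alternative chosen after seeing the data; the cause was not tested. Trbc2 is also present in NK cells, so the gate on these genes holds cells other than T cells. Leaving out each table gave 6 to 9 genes higher, 4 to 7 lower and 0 past 1.5-fold, and 11 to 12 genes at least 2-fold higher in T than NK cells. No member outside counting error in all T cells changed sign. Values near 0 did, among them the median in CD8 T cells (-0.04, against 0.05 with the 33 genes used in clustering), in regulatory T cells (-0.02, against 0.06 without the table of isotype mouse 3) and in CD4 T cells (0.00, against -0.05 scaled to totals), and Zap70 (0.07, against -0.09 with the gate on Trac or Trbc). Under that gate of Trac or Trbc counts, Cd3d was at -0.31, Cd3e at -0.26, Icos at 0.03 and Grap2 at 0.27. Alternatives were not run for the other classes. With 1 pool per treatment, the mouse-to-mouse spread cannot be given, and genes with few counts in the small clusters have wide intervals.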
